A study of Rhagoletis pomonella with 50 samples.

Results

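Rhagoletis pomonella, the apple maggot fly, passes the winter as a pupa in diapause, a hormonally programmed arrest of development. The comparison described here sets the central nervous system (CNS) of pupae of the apple population after 4 months in the cold against that after 2 months. It holds 10 of the 50 libraries of the series, 5 libraries of apple pupae at 4 months and 5 of apple pupae at 2 months, chosen by the host and diapause age in the labels. All features with enough counts were described. The larvae of both groups fed in apple fruit from 1 locality in Illinois in 2014, spent 10 days at about 24 °C with 14 h of light and 10 h of dark while they pupated, and were then moved to 3.5 °C at 95% relative humidity. Each library was made from RNA of 10 pooled CNS, so differences between single pupae cannot be seen. The series also holds libraries of 3, 5 and 6 months and of pupae from hawthorn fruit, kept in the same way. The labels do not say whether pools came from separate collections or rearing batches, so p-values measure the spread between these pools only.

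In insects that overwinter as pupae, the brain sets the arrest by withholding the neuropeptide that drives the prothoracic glands to make ecdysone, the steroid that starts adult development. Prolonged cold is known to prepare such pupae to resume development once warmth returns. In this fly the apple population arose from the ancestral hawthorn population, and the hosts differ in the time of year at which their fruit ripens.

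The features carry identifiers from the annotation of a related species, Rhagoletis zephyria, and the files do not pair them with gene names. No name in the available table of R. pomonella genes matched any of the 29399 feature or 39273 transcript identifiers (0 of each). The labelled tissue was therefore not checked against marker genes, and features are described by level, size of change, timing, length and behaviour in other libraries.

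Expected counts per library, the read counts that RSEM assigned to features, summed to between 12218717 and 16662129 at 4 months and between 15304315 and 30540959 at 2 months. The 2-month libraries were thus the deeper ones on average (exact permutation test, 2-sided p = 0.0159, adjusted p = 0.111 over 7 library measures, n = 5 each). The share of counts in the 100 most abundant features was 49.2 ± 0.332% at 4 months and 49.1 ± 1.04% at 2 months (SD, n = 5 each). The length slope, the change in log2 level per doubling of transcript length relative to all libraries, averaged 0.00709 ± 0.0590 at 4 months and -0.0277 ± 0.0631 at 2 months (exact p = 0.405, adjusted p = 0.546, n = 5 each). Log2 levels of libraries of the same month correlated across features with Pearson's r between 0.950 and 0.980. Of the 4-month libraries 4 were sequenced in lane 6 and 1 in lane 5, and of the 2-month libraries 3 were in lane 3 and 2 in lane 2. No lane held libraries of both months, so no value within a lane could be had, and lane was taken into account only by a model over all 50 libraries that links lanes through the other groups. In 2 hawthorn libraries of 4 months, replicates 2 and 4, longer transcripts were under-represented (length slopes of -0.270 and -0.272), and results that rest on hawthorn are given with and without them.

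Between 2 and 4 months in the cold, 660 of 13862 tested features changed in apple pupae (4.76%), 344 higher (2.48%) and 316 lower (2.28%) at 4 months. The test was edgeR's quasi-likelihood test with Benjamini-Hochberg adjustment, and features with an adjusted p under 0.05 are called. The median log2 fold change was 0.94 among the 344, a 1.92-fold difference, and -0.68 among the 316, a 1.60-fold difference. The median over all tested features was 0.00. At least a 2-fold change was seen in 145 of the 344 and in 60 of the 316, together 1.48% of tested features. Changes of 3-fold or more were few, 24 upward and 13 downward. Values did not overlap between the months in 230 of the 344, where 3.29% of all tested features were higher at 4 months without overlap, and in 245 of the 316, where 3.85% were lower, together 7.14%. These medians and counts describe features picked by this contrast, and they are larger than those of a list picked otherwise would be.

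The count of calls depended on how lanes were treated. With lane as a term, 18 features were called, 9 in each direction and all among the 660 (0.13% of tested features). Under that fit the median log2 fold change was 0.87 for the 344 and -0.69 for the 316, all 660 kept their sign, and the median standard error (SE) rose to 0.341 and 0.259, against 0.222 and 0.164 without the term. These signs come from the libraries that made the calls, and lend them no independent support. How much of the difference between the months goes with lane cannot be told apart within these 10 libraries. With the length slope of each library as a term the count was 1000, and without the 2 outlying hawthorn libraries, which enter the estimate of spread, it was 1036 (7.22%). With only the 10 apple libraries in the fit 645 were called, and 223 of the 325 higher and 256 of the 312 lower features that were tested there were called again. The count was 384 without 2-month replicate 4 and 332 without 2-month replicate 5, while leaving out any other library of the 10 gave 458 to 706.

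**Figure D1:**
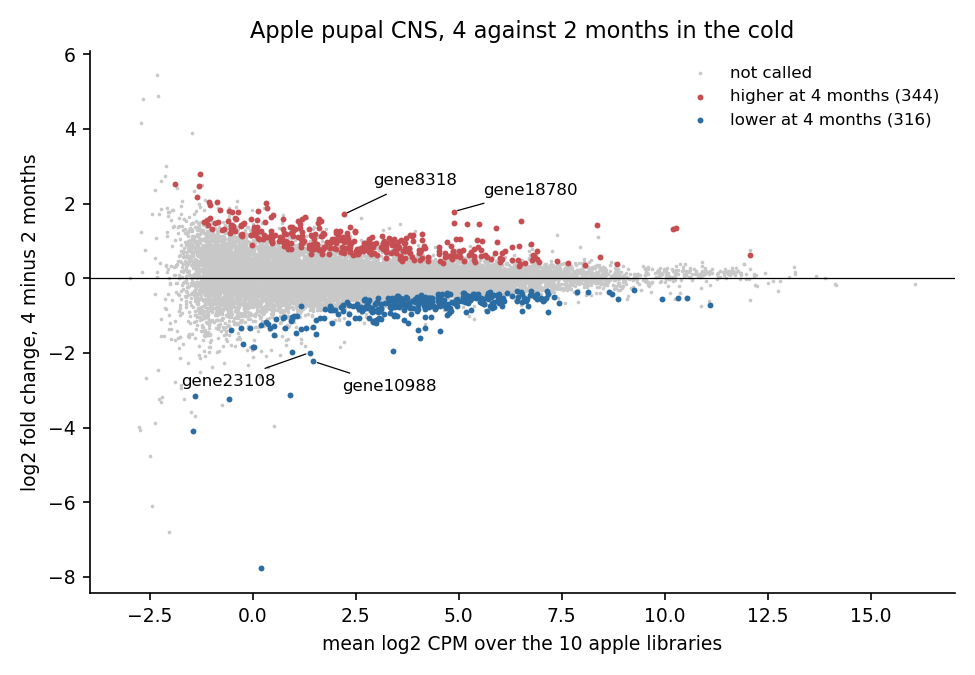
Mean log2 CPM over the 10 apple libraries (horizontal axis) against the log2 fold change of 4 over 2 months (vertical axis), 1 point per tested feature. Called features are coloured, 344 higher and 316 lower at 4 months, and the 4 features given in full are labelled. Below a mean log2 CPM of about 0 only large changes were called.

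The called features included scarce and abundant ones. The median TPM (a level per transcript length, scaled to the same total in each library) was 2.48 for the features higher at 4 months and 10.3 for those lower at 4 months, against 4.52 for all tested features. Of the higher features 87 had a mean TPM under 1 and 11 a mean of at least 100. Of the lower features 12 were under 1 TPM and 10 at or above 100 TPM. Among all 13862 tested features 2990 were under 1 TPM and 798 at or above 100 TPM. The most abundant member of the higher list averaged 4218 TPM and that of the lower list 3245 TPM, against 36897 TPM for the most abundant of all tested features. No higher feature lacked reads in all 5 libraries of 2 months, and 69 of them averaged under 1 CPM (counts scaled to the same total in each library) there. Of the lower features 19 averaged under 1 CPM at 4 months. The difference in depth between the months bears on such scarce features, and its part in their calls was not tested.

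In sum of counts the shift was small. The 344 higher features held 2.00 ± 0.119% of all counts at 4 months, against 1.16 ± 0.131% at 2 months, and the 316 lower ones held 1.55 ± 0.0965% at 4 months, against 2.37 ± 0.239% at 2 months (SD, n = 5 each). These sums were carried unevenly. Of the summed gain in CPM, 1 feature made up 24.6% and the 10 largest 67.4%, while of the summed loss 1 feature made up 15.7% and the 10 largest 46.3%.

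Among features whose mean log2 CPM was 1 or more and whose values did not overlap between the months, the largest rise was that of gene18780, a feature of 2 annotated transcripts with a mean length of 1817 bp. It stood at 32.3, 66.9, 98.4, 56.2 and 32.2 CPM in the 5 libraries of 4 months, against 17.4, 13.8, 21.4, 14.9 and 15.6 CPM in those of 2 months. Every 4-month library lay above every 2-month library, and the 4-month pools were also the more scattered, at 57.2 ± 27.6 CPM against 16.6 ± 2.99 CPM (SD, n = 5 each). The log2 fold change was 1.78 (SE 0.345, edgeR adjusted p = 0.00119), or 2.45 with lane as a term (adjusted p = 0.0290). Per length its level was 39.3 ± 20.1 TPM at 4 months and 11.8 ± 2.30 TPM at 2 months.

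The next largest rise was that of gene8318, a feature of 1 transcript of 1698 bp. Its values at 4 months were 4.92, 12.0, 12.6, 6.64 and 5.79 CPM, against 2.54, 2.33, 2.67, 2.72 and 2.59 CPM at 2 months. The 2-month pools were nearly identical, and the lowest 4-month pool still lay well above them. The log2 fold change was 1.71 (SE 0.359, edgeR adjusted p = 0.00248), and 2.72 with lane as a term (adjusted p = 0.0290). Expected counts of gene8318 and gene18780 were not whole in any of the 10 libraries, while the sum of the 2 was whole in each. Reads were thus divided between these 2 features, and both values depend on how RSEM divided them. The 2 rises are therefore not independent results. Replicates 2 and 3 were the highest 4-month libraries for both, which the shared reads alone could bring about.

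Within the same limits, the largest fall was that of gene10988, with 1 transcript of 2563 bp. It had 1.68, 1.30, 1.28, 0.623 and 1.37 CPM at 4 months, against 4.48, 3.95, 6.16, 6.57 and 8.42 CPM at 2 months. The groups were well apart, with expected counts of 9 to 31 reads at 4 months and 74 to 196 reads at 2 months. The log2 fold change was -2.23 (SE 0.487, edgeR adjusted p = 0.00355). With lane as a term it was -0.91 and the call ended (adjusted p = 0.811).

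The second fall was that of gene23108, a feature of 3 transcripts with a mean length of 1428 bp. It had 0.703, 1.30, 0.987, 1.73 and 1.66 CPM at 4 months, against 3.87, 4.07, 5.47, 5.38 and 6.49 CPM at 2 months. Here too no value of 4 months reached the range of 2 months. The log2 fold change was -1.99 (SE 0.350, edgeR adjusted p = 0.000343), and -2.53 with lane as a term (adjusted p = 0.0465).

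**Figure D2:**
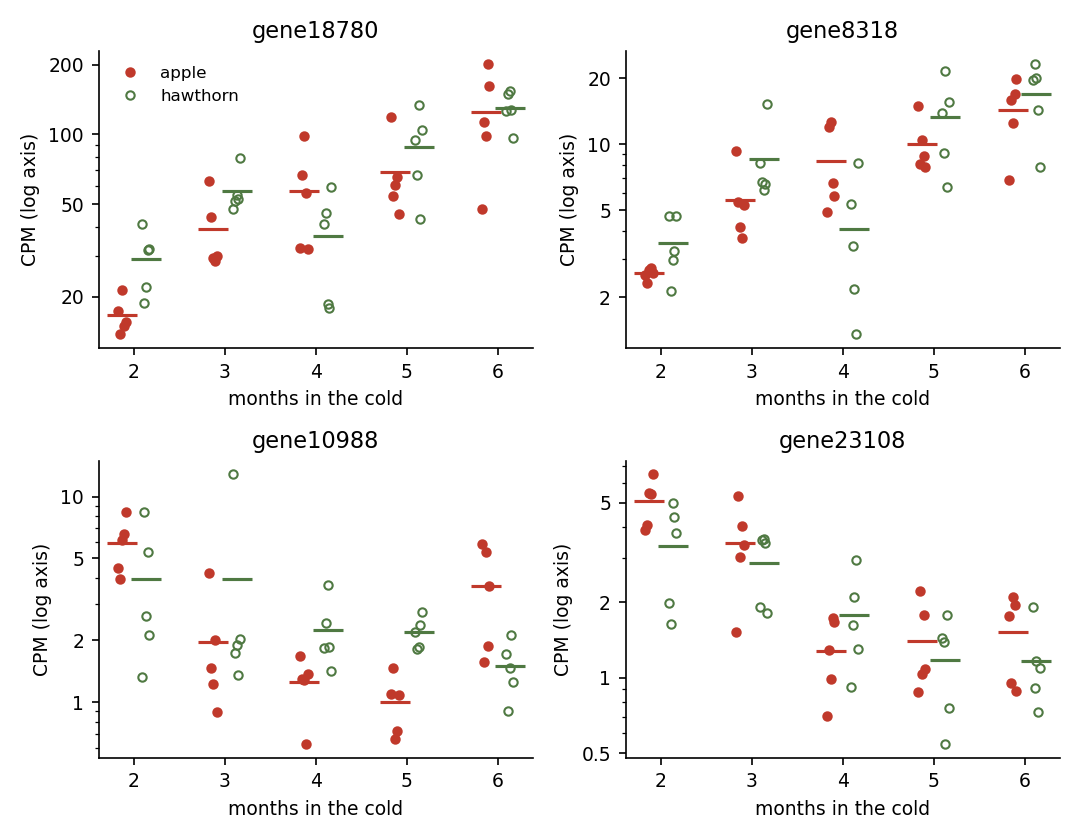
CPM of gene18780, gene8318, gene10988 and gene23108 in every library (log vertical axes) by month in the cold, filled for apple and open for hawthorn, with a bar at each group mean. In apple the first pair reached its highest means at 6 months, 124 and 14.4 CPM, while gene10988 had its lowest mean at 5 months, 1.01 CPM.

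The months between and after give the level of these 4 features over time in apple pupae. Lanes differed between the months, so these levels cannot be told apart from lane by the means alone. The mean level of gene18780 was 16.6, 39.0, 57.2, 69.0 and 124 CPM at 2, 3, 4, 5 and 6 months. Its mean CPM was thus higher at each later month. The mean level of gene8318 was 2.57, 5.58, 8.39, 10.0 and 14.4 CPM over the same months, in the same order. As these 2 features share reads, their courses are not independent. From 3 months on, pools of neighbouring months overlapped for both. Neither was called at 4 against 3 months (edgeR adjusted p = 0.563 and 0.542). In TPM the mean was 39.3 at 4 months and 36.6 at 5 months for gene18780, and 6.17 and 5.82 for gene8318. For gene18780 the 5-month mean includes 1 pool at 118.6 CPM, with the others between 45.5 and 65.9 CPM. The level of gene10988 was 5.91, 1.96, 1.25, 1.01 and 3.67 CPM. Its 6-month pools ranged from 1.57 to 5.90 CPM and overlapped those of 2 months. For gene23108 the means were 5.06, 3.46, 1.28, 1.40 and 1.53 CPM, and the 3 later months differed by less than the spread between their pools. At 3 months the only pool in lane 3, which also held 2-month pools, stood outside the others for all 4 features. For gene10988 it had 4.23 CPM (others 0.898 to 1.99), within the 2-month range of 3.95 to 8.42 CPM. For the other features it lay further from 2 months than the lane 5 pools, such as 63.2 CPM for gene18780 (others 28.6 to 44.2).

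The medians of the called features over the months differed by direction. Relative to 2 months, the median log2 difference of the 344 higher features was 0.73 at 3 months, 0.94 at 4 months, 1.12 at 5 months and 1.14 at 6 months. For the 316 lower features it was -0.28, -0.68, -0.71 and -0.61 at the same months. Over all tested features these medians lay between -0.02 and 0.01. The 4 contrasts share their 2-month libraries, so they are set side by side as values only.

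The 3-month libraries entered the choice of these features only through the filter and the estimate of spread shared by all 50 libraries, not through the contrast. The 2-month and 4-month levels against which they are measured here did make that choice. Measured in mean log2 CPM, the 3-month level lay nearer the 4-month than the 2-month level in 280 of the 344 higher features (81.4%) and in 111 of the 316 lower features (35.1%), against 53.7% of all tested features. The median feature had covered 77.0% of its way from the 2-month to the 4-month level by 3 months in the higher list, and 40.8% in the lower list. Since both end levels chose the features, spread between pools at 2 or 4 months can move these shares either way. Its part in the gap between the lists was not tested, so the shares are a description. In 64 higher features the 3-month level was beyond that of 4 months, as it was in 8 lower features. Of the 5 libraries of 3 months, 4 were in lane 5 and 1 in lane 3. With lane as a term the medians at 3 months were 0.63 for the higher and -0.26 for the lower features, and at 4 months 0.87 and -0.69. A direct contrast of 4 against 3 months called 119 features (0.858% of those tested), 54 higher (0.39%) and 65 lower (0.469%). With lane as a term 0 were called (1262 at an unadjusted p under 0.05), DESeq2 without that term called 298, and 356 were called without the 2 outlying hawthorn libraries (2.48%). Leaving out any 1 library of the 10 but 3-month replicate 4 moved the count by over 1.5 times, to between 0 without 4-month replicate 2 and 183 without 4-month replicate 1. In that contrast the median log2 fold change was 0.22 for the 344 and -0.42 for the 316.

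**Figure D3:**
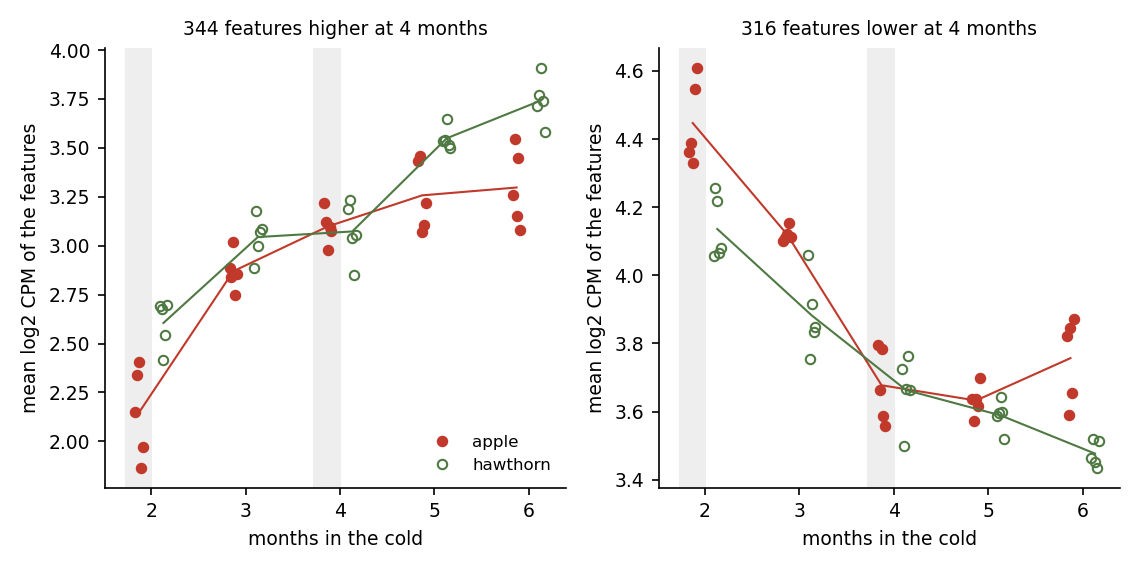
Mean log2 CPM of the 344 features higher (left) and the 316 features lower (right) at 4 months, 1 point per library, by month and host, with lines through group means. Shaded bands mark the apple libraries of 2 and 4 months, whose contrast chose the features, while all other points entered only the filter and the estimate of spread. In apple the mean of the higher features was 2.87 at 3 months and 3.10 at 4 months, and that of the lower ones 4.12 at 3 months and 3.68 at 4 months.

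Apple pupae of 5 and 3 months give a contrast of time in the cold with none of the 10 libraries of 4 and 2 months, although all 50 libraries share the filter and the estimate of spread. Of the 660 features, 618 (93.6%) had the same sign at 5 against 3 months as at 4 against 2 months, against 64.9% of all tested features. By direction it was 309 of the 344 higher and 309 of the 316 lower features. Lane 5 alone held 3 libraries of 5 months and 4 of 3 months. Within that lane 620 of the 660 (93.9%) had the same sign, against 64.4% of all tested features, and the median log2 difference was 0.45 for the higher list and -0.47 for the lower. In the full contrast these medians were 0.39 and -0.45, against -0.01 over all tested features. It called 270 features (1.95%), 101 higher and 169 lower. The count was 123 with lane as a term (0.887%) and 704 without the 2 outlying hawthorn libraries (4.91%). It was 216 to 254 without 3-month replicate 1 or 5-month replicate 2 or 5, and 91 to 159 without any 1 of the other 7 libraries. Of the 344 higher features 31 were called higher again (9.01% of them, 30.7% of the 101), where 0.729% of all tested features were. Of the 316 lower features 77 were called lower again (24.4% of them, 45.6% of the 169), where 1.22% of all were, and 0 of the 660 were called in the opposite direction. Of the features given above gene23108 was called there, with a log2 fold change of -1.30 (SE 0.351, edgeR adjusted p = 0.0377). The others had 0.82 for gene18780, 0.85 for gene8318 and -0.96 for gene10988 (edgeR adjusted p = 0.207, 0.207 and 0.362).

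Pupae from hawthorn fruit at the same months are a further set outside the contrast. Of the 660 features 581 (88.0%) had the same sign at 4 against 2 months in hawthorn, against 59.6% of all tested features, and 601 (91.1%) against 62.9% without the 2 outlying libraries. With lane as a term it was 596 (90.3%) against 60.7%. Within lane 1, which held 2 hawthorn libraries of 4 months and 3 of 2 months, it was 583 (88.3%) against 61.8%. Without the outlying library there, 1 library of 4 months remained, and 558 features (84.5%) had the same sign, against 60.2% of all tested features. The median log2 fold change in hawthorn was 0.49 for the 344 and -0.42 for the 316, against 0.02 over all tested features.

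In hawthorn itself 1712 features were called between these months (12.4%), 1042 (7.52%) with lane as a term and 571 (3.98%) without the outlying libraries. With only these 10 hawthorn libraries in the fit the count was 0 (1810 at an unadjusted p under 0.05, and 2099 by DESeq2 on all 50 libraries), so the overlaps that follow rest on the fit over all libraries. Without 4-month replicate 1 alone it was 2958, without replicate 2 alone 1028 and without replicate 4 alone 914. Of the 344 higher features 115 were called higher in hawthorn too (33.4% of them, 12.9% of the 890 called higher there, 6.42% of all tested). Of the 316 lower features 129 were called lower (40.8% of them, 15.7% of the 822, 5.93% of all tested). In the opposite direction 1 of the 660 was called. Without the outlying libraries 157 of the 660 were called in the same direction and 0 in the opposite one. None (0) of the 4 features given in full was called in hawthorn, where the log2 fold change was 0.32 for gene18780, 0.18 for gene8318, -0.80 for gene10988 and -0.92 for gene23108 (edgeR adjusted p = 0.568, 0.790, 0.279 and 0.0766). Without the outlying libraries these were 0.45, 0.53, -0.73 and -1.18, and again 0 of the 4 was called (edgeR adjusted p = 0.591, 0.534, 0.550 and 0.0970). Later hawthorn months moved the same way. At 5 against 2 months the values were 1.60, 1.88, -0.84 and -1.48 (edgeR adjusted p = 0.000993, 0.000236, 0.226 and 0.00307). At 6 against 2 months they were 2.16, 2.24, -1.39 and -1.51 (edgeR adjusted p = 1.08e-05, 1.01e-05, 0.0353 and 0.00169).

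**Figure D4:**
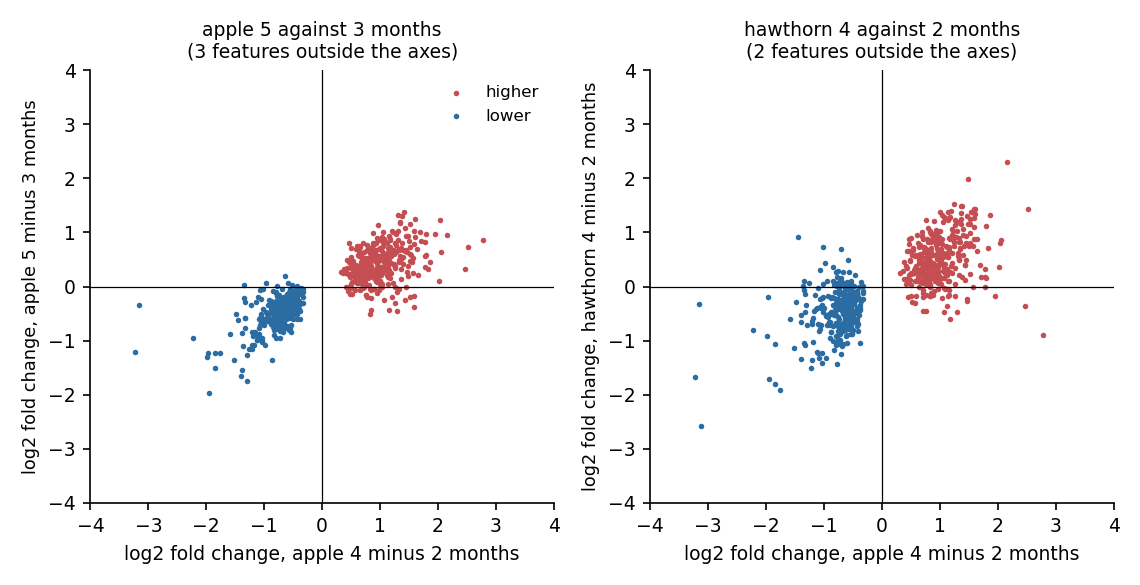
Log2 fold change of the 660 called features at 4 over 2 months in apple (horizontal axes) against that at 5 over 3 months in apple (left) and at 4 over 2 months in hawthorn (right), both from libraries outside the contrast that chose the features, which share its filter and estimate of spread. Of the 660 features 618 on the left and 581 on the right had the same sign on both axes, counting the 3 and 2 features that lie outside the axes.

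The mean level of these lists was followed through the winter in both hosts. Mean log2 CPM of the 344 higher features in apple was 2.15 ± 0.231, 2.87 ± 0.0977, 3.10 ± 0.0859, 3.26 ± 0.181 and 3.30 ± 0.197 at 2, 3, 4, 5 and 6 months (SD, n = 5 each). In hawthorn it was 2.61 ± 0.124, 3.04 ± 0.110, 3.07 ± 0.150, 3.55 ± 0.0581 and 3.74 ± 0.118. No apple pool reached the lowest hawthorn pool at 2 months (highest apple pool 2.40, lowest hawthorn pool 2.41), at 5 months (3.46 and 3.50) or at 6 months (3.55 and 3.58), while the pools of the hosts overlapped at 3 and 4 months. The lower features had 4.45 ± 0.123, 4.12 ± 0.0210, 3.68 ± 0.109, 3.63 ± 0.0456 and 3.76 ± 0.126 in apple, and 4.14 ± 0.0943, 3.88 ± 0.114, 3.66 ± 0.101, 3.59 ± 0.0450 and 3.48 ± 0.0383 in hawthorn. For these, all apple pools lay above all hawthorn pools at 2 months (lowest apple pool 4.33, highest hawthorn pool 4.26), 3 months (4.10 and 4.06) and 6 months (3.59 and 3.52). The pools overlapped at 4 and 5 months. At 2, 3, 4 and 5 months no lane held pools of both hosts. Since the 2-month and 4-month apple pools chose the features, the distance between hosts at these months is a description.

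A test of the difference between hosts in the change from 2 to 4 months called 2 features (0.0144%), with 1996 at an unadjusted p under 0.05 and 59 called by DESeq2. Among features whose mean log2 CPM was 1 or more, the one called was gene9611, of 4 transcripts with a mean length of 1625 bp. In apple it had 28.2, 19.6, 20.2, 25.0 and 17.5 CPM at 4 months, against 10.7, 11.1, 9.42, 8.25 and 10.0 CPM at 2 months. In hawthorn it had 16.8, 16.3, 16.8, 11.8 and 12.0 CPM at 4 months, against 15.1, 18.6, 16.7, 14.3 and 17.2 CPM at 2 months. Apple pools of 4 months all lay above those of 2 months, while the hawthorn pools overlapped. At 2 months its mean was 9.90 CPM in apple and 16.4 CPM in hawthorn. In hawthorn the mean was higher later, 22.8 CPM at 5 months and 26.3 CPM at 6 months. Against 2 months these were log2 fold changes of 0.47 and 0.68 (edgeR adjusted p = 0.0380 and 0.00170). From 2 to 4 months the change in apple exceeded that in hawthorn by 1.31 on the log2 scale (SE 0.230, edgeR adjusted p = 0.0109). That call ended with lane as a term (0.98, adjusted p = 0.950), without the 2 outlying libraries (1.26, adjusted p = 0.0507) and with only the 4 groups in the fit (1.31, adjusted p = 0.116). Among 4-month hawthorn pools, leaving out replicate 1 gave 231 calls, replicate 2 gave 9 and replicate 3 gave 16, and leaving out replicate 2 of the 2-month apple pools gave 39. It was 1 to 3 without any other single library. The second feature called was gene19693, which lies below that level and is named because only 2 were called.

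Long features were called more often in both directions, and features of several transcripts more often in the lower direction. Of the features in the longest of 4 length classes of equal size, 2632 bp and above, 8.69% were called, against 1.85% in the shortest class, up to 1024 bp. The median SE of the log2 fold change was 0.203 in the longest and 0.333 in the shortest class, so smaller changes could be called among long features. The median log2 fold change was 0.05 in the longest class and -0.01 in the shortest. Called features had a median length of 2579 bp if higher and 2354 bp if lower, against 1650 bp over all tested features. Of the lower features 147 of 316 (46.5%) had more than 1 annotated transcript, as did 98 of 344 higher features (28.5%), against 27.6% of all tested features. Called lower were 3.84% of features of several transcripts and 1.68% of those of 1 transcript, and called higher were 2.56% and 2.45%. The median SE was 0.206 for features of several transcripts and 0.280 for those of 1. Their median log2 fold changes were -0.03 and 0.02. By level, the lower calls came mainly from the upper classes: 4.16% of features in the third of 4 classes of mean log2 CPM were called lower, against 0.404% in the lowest. The higher calls ran between 1.85% and 3.43% over the 4 classes. The median SE was 0.489 in the lowest and 0.160 in the highest class of level.

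**Figure D5:**
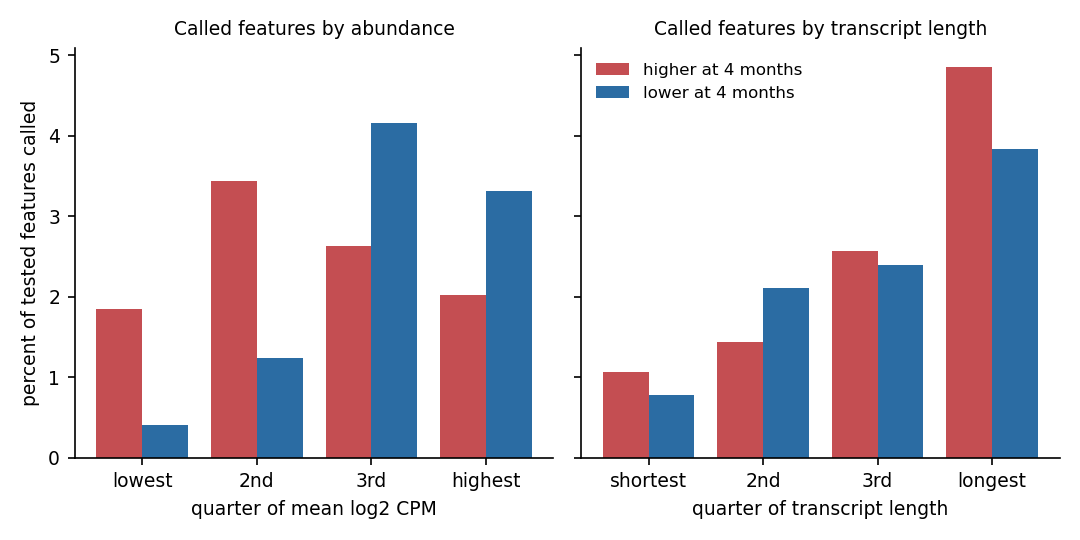
Percent of tested features called higher or lower at 4 than at 2 months in apple, in 4 classes of equal size by mean log2 CPM (left) and by transcript length (right), with bars starting at 0. The share called lower was 0.404% in the lowest and 4.16% in the third class of level, and the share called higher was 4.85% in the class of longest transcripts.

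A further readout in the same libraries is the length that RSEM gives each feature, the mean over its isoforms weighted by their estimated abundance. It moves with the estimated mix of isoforms. Of 2908 features with an expected count of at least 20 in each of the 10 libraries and a length that varied, limma called 0 between 4 and 2 months (202 at an unadjusted p under 0.05, smallest adjusted p = 0.103). The median absolute difference was 0.257%. A difference over 10% was found in 11 of the 2908, and in 4 of the 215 tested features that had changed in level. Leaving out 4-month replicate 1 or 4 gave 3 and 6 calls.

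Spread between pools was of the same order at both months. The median SD of log2 CPM over all tested features was 0.318 at 4 months and 0.290 at 2 months (n = 5 each). For the features higher at 4 months it was 0.277 at 4 months and 0.364 at 2 months, and for the lower ones 0.248 at 4 months and 0.211 at 2 months. The first principal component of the 10 libraries held 24.0% of the variance and placed all 4-month pools, at 4.60 to 59.1, apart from all 2-month pools, at -42.6 to -8.38. Replicate 4 of 4 months lay at 59.1, and the other 4-month pools at 4.60 to 24.4. No lane held pools of both months, so this component parts lanes as fully as months.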

How the data were processed

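RNA of the pupal CNS was sequenced by the authors as stranded mRNA libraries with 100 bp single-end reads. STAR mapping to the R. zephyria genome and RSEM counting are named in the submitters' processing notes and the labels, with no version. The genome build was not given in the sources used here. The deposited expected counts, per the file headers, are RSEM's estimated read counts and need not be whole. Between 16.0% and 20.9% of features in the 10 libraries held a value that was not whole (over 0.005 from a whole number), and reads shared by near-identical copies are uncertain. The deposited TPM and transcript length were made by the authors with RSEM.

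Expected counts were rounded. Features were kept by filterByExpr (minimum count 10, minimum total 15) over the 10 groups, which left 13862 of 29399 with 99.9% of counts. Libraries were scaled by TMM, and 1 model with a mean for each group was fitted to all 50 libraries by edgeR 4.0.16 (quasi-likelihood, robust, the form before version 4), with Benjamini-Hochberg adjustment over all tested features. SE was taken from the fold change and its F statistic. Isoform length was tested with limma 3.58.1 on its log2, and DESeq2 1.42.0 was an alternative, in R 4.3.3. Log2 CPM used a prior count of 2. Other statistics used scipy 1.17.1 in Python 3.11.15. The scripts were tested on simulated data. At a mean count of at least 50, calls recovered 24 of 100 features changed 1.5-fold and 73 of 100 changed 2-fold. There were 2 false calls. For isoform length 176 of 200 features shifted by 4 SD were recovered, with 9 false calls, and smaller shifts were not tried. Lanes were read from run information left with the deposited data. Among the apple libraries of 4 and 2 months, no 2 of the same month agreed within counting noise (mean chi-square per feature 17.1 to 60.6, where 1 is counting noise alone). Pairs of the other groups were not checked.

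The comparison, its features and the tests were chosen with earlier results of these data known. Named features were, per comparison, at most 2 higher and 2 lower with the largest fold change among called features whose mean log2 CPM was 1 or more and, for 4 against 2 months, no overlap. Gene lists by symbol (cell cycle, Wnt, ecdysone, insulin and TOR, stress, clock, neuron, glia, fat body and blood, muscle) had 0 members matched, as no identifier has a name. Alternatives were RLE scaling, no count filter, DESeq2, only the groups compared, terms for lane, length slope and replicate number, no outlying libraries, and each library left out. The values within a lane and the 3-month medians with a lane term were chosen after seeing the data. No sequence is shown, as none was matched to a feature.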

Additional observations from a re-analysis of the deposited data

Results flagged for a closer look

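Of 82 sets of 5 pools checked, 6 held a pool far from the other 4 of its set, where chance gives about 1 in 20. For gene18780, replicate 1 of apple at 5 months had 118.6 CPM, with the others between 45.5 and 65.9 CPM, and replicate 5 of hawthorn at 3 months had 79.1 CPM, with the others between 47.6 and 54.9 CPM. That same hawthorn pool was high for gene8318, at 15.3 CPM against 6.16 to 8.20 CPM in the others. As gene8318 and gene18780 share reads, these flags of that pool are not independent. For gene10988, replicate 1 of hawthorn at 3 months had 12.9 CPM, with the others between 1.35 and 2.03 CPM. For gene9611, replicate 2 of apple at 6 months had 32.9 CPM, with the others between 18.7 and 22.2 CPM. The mean log2 CPM of the 344 features higher at 4 months was 3.65 in replicate 3 of hawthorn at 5 months, with the others between 3.50 and 3.54. None of these pools belongs to apple at 4 or 2 months, though all 50 libraries enter the estimate of spread.

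The change from 2 to 4 months differed between hosts for 2 features by an interaction contrast. It was larger in apple by 1.31 on the log2 scale for gene9611 (SE 0.230, edgeR adjusted p = 0.0109) and by 2.49 for gene19693 (SE 0.469, edgeR adjusted p = 0.0208, mean log2 CPM 0.03 over the 20 libraries). Neither was called with lane as a term, where the count was 0.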

How the results depend on the processing

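The 660 calls of 4 against 2 months in apple became 18 with a lane term, 1000 with the length slope as a term and 1036 without the 2 outlying hawthorn libraries, and were 332 to 706 with 1 library left out. Of the features given in full, gene10988 lost its call under the lane term, and gene18780, gene8318 and gene23108 kept theirs in all 18 alternatives. For apple 4 against 3 months (119 calls) the count was 50 without a count filter, 0 with the lane term, 377 with the length slope, 356 without the outlying libraries, 0 with only the groups compared (1985 at an unadjusted p under 0.05), 298 by DESeq2 and 0 to 183 with 1 library left out. For apple 5 against 3 months (270) it was 167, 123, 641, 704, 73 and 496 in that order, and 91 to 254. For hawthorn 4 against 2 months (1712) it was 1042 with the lane term, 571 without the outlying libraries, 0 with only the groups compared (1810 at an unadjusted p under 0.05) and 914 to 2958. The host difference (2) was 0 with the lane term, without the outlying libraries and with only the groups compared, 59 by DESeq2 and 1 to 231, the highest without hawthorn replicate 1 of 4 months. Isoform length (0) gave 0 to 6. The cause of these moves was not tested. RLE scaling moved no count by over 1.5 times and the median over all features by under 0.1 on the log2 scale.

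Replicate numbers did not pair the libraries: same-numbered libraries of 4 and 2 months deviated from their group means with r between -0.06 and 0.16. With a replicate block the counts were 652, 117, 251, 1623, 2 and 0, in the order above. The median SE was 0.489 in the lowest and 0.160 in the highest of 4 classes of level, and the part of depth in this was not tested.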
